A study of Mus musculus with 9 samples.

Results

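The genes described here are 10 genes of blood monocytes and of the young macrophages that grow out of them: Ly6c2, Plac8, F13a1, Vcan, Itgam, Ace, Treml4, Cd14, Fcgr1 and Ms4a7. They were taken by symbol from the 54281 genes of the deposited table, and all 10 passed the filter on low counts. The values are RNA sequencing counts from lung macrophages of 9 female wild type mice from Jackson Labs, aged 12 wk, with no transgene or deletion in any group. Of these, 3 mice were killed 72 h after a 3 h whole-body exposure to 0.8 ppm ozone, 3 mice 24 h after the same exposure, and 3 mice breathed air. The cells were washed from the airspaces by lavage with massage of the lung, and red cells were lysed before RNA extraction. No step that sorted macrophages from other cells is given in the labels, so each library reads out whatever cells the lavage held.

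Blood monocytes come in 2 main kinds in the mouse. Classical monocytes carry Ly6C and the chemokine receptor CCR2, leave the blood at sites of injury, and can become macrophages in the tissue. Non-classical monocytes carry little Ly6C, patrol the vessel wall and express genes such as Ace and Treml4. Resident alveolar macrophages are seeded around birth and largely renew themselves. After lung injury, macrophages that derive from monocytes can join them, and Itgam (CD11b) is commonly used to tell such cells from resident ones, which carry little of it. Several genes of the set, Cd14 and Fcgr1 among them, are also expressed by macrophages of other origins.

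The sequence just upstream of the gene is shown for 4 of the 10 genes and for 1 close relative. These are Ly6c2, F13a1 and Itgam, which were all highest in the same 2 libraries, Ace, which changed with ozone, and Ly6c1, the near copy of Ly6c2. The 250 bases before each RefSeq transcription start are printed 5′ to 3′ on the gene's own strand, from the GRCm38.p6 build. Capitals mark matches on either strand to GAGGAA, the core bound by PU.1 (the factor that sets up the myeloid lineages), or to TATAAA. The windows are chr15:75111972-75112221 (minus strand) for Ly6c2, chr15:75048838-75049087 (minus) for Ly6c1, chr13:37050245-37050494 (minus) for F13a1, chr7:128062390-128062639 (plus) for Itgam and chr11:105967698-105967947 (plus) for Ace.
Ly6c2: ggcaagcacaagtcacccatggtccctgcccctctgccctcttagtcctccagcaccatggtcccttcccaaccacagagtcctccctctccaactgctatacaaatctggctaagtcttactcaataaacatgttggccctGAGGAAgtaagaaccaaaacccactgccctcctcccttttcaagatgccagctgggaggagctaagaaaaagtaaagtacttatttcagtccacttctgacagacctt
Ly6c1: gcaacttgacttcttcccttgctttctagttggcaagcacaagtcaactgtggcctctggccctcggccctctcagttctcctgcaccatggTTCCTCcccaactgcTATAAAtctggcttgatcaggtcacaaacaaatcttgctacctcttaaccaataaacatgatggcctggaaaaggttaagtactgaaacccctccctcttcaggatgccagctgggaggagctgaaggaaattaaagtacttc
F13a1: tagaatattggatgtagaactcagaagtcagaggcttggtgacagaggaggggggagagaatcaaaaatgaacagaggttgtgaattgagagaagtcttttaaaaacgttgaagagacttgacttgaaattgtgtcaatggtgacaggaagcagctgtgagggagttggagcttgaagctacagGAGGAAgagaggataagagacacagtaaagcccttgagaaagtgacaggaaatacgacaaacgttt
Itgam: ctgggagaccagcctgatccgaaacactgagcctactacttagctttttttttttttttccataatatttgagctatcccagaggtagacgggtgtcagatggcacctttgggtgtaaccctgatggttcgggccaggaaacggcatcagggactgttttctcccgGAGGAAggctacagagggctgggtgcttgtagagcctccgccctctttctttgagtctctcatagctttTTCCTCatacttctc
Ace: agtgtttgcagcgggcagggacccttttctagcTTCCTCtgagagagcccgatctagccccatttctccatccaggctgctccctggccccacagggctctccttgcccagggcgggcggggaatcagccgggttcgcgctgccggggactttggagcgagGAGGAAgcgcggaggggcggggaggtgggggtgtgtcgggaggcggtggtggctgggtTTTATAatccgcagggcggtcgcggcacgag

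A match to GAGGAA stood in the upstream windows of 7 of the 9 genes searched: Ly6c2, Plac8, F13a1, Itgam, Ace, Treml4 and Fcgr1. Vcan and Ms4a7 had none, and Cd14 was not searched. The match lay with its first base 108 bases before the start of Ly6c2 and 66 bases before that of F13a1. Plac8, Itgam, Ace and Treml4 each held a pair of matches. In all, 23% of 27025 mouse windows of this length hold the same letters, so the match is common. Also searched on both strands were TTGCNNAA (C/EBP type), GAAA with a second GAAA 2 bases on (IRF type) and TATAAA, found in 9.55%, 3.05% and 13% of all windows. Of the 9 windows, that of Ace held TATAAA. None of the 9 windows held the C/EBP or the IRF letters. A match is a description of the letters and does not show that a factor binds there. Ly6c2 and Ly6c1 were 97.6% identical over the 822 aligned bases of their transcripts and 80.6% identical over 211 aligned bases of the windows. As 48.2% of the 31-base words of the Ly6c2 transcript also occur in Ly6c1, reads could be shared between them, and the level of Ly6c2 is uncertain to that extent.

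The libraries held 47095543 to 60248305 counts. Of the 9, 24 h replicate 2 and 72 h replicate 1 stood apart: the first principal component of the expression values carried 54.2% of the variance and placed them at 104 and 80.7, with the other 7 libraries between -47 and 0.294. Markers of other cells were high in both. Summed over the whole list, 10 B cell markers had 1480 CPM (counts per 1000000 counts of the library, after TMM scaling) in 24 h replicate 2, 842 CPM in 72 h replicate 1 and 1.91 to 11 CPM in the other 7 libraries. For 9 markers of serous cavity macrophages the sums were 628, 810 and 4.23 to 7.25 CPM in the same order, and for 10 interstitial macrophage markers 267, 279 and 13.5 to 22.7 CPM. Markers of resident alveolar macrophages, 15 genes, summed to 22800, 26300 and 29000 to 35800 CPM, so the labelled cell type was present in every library. Most of these sums was Chil3, at 14800, 17900 and 18900 to 24800 CPM, which is also in the list of further classical monocyte genes read below. Siglecf, another of the 15, had 231, 382 and 332 to 529 CPM. Air replicate 2, although from a female mouse per the labels, had 2.42 CPM of Xist, the RNA of the inactive X chromosome, against 887 to 1480 CPM in the other 8. Ddx3y and Eif2s3y of the Y chromosome were at 0 in all 9 libraries. Every result below is therefore given for all 9 libraries and, where it differs, without the 2 that stood apart, and the genes called at 72 h against air are given without air replicate 2 too. Nothing in the labels says that replicate numbers mark a shared litter, day or batch.

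The 10 genes did not move as 1 group. Ly6c2, Plac8, F13a1 and Itgam were between 21.5 and 230 times the median of the other 7 libraries in 24 h replicate 2, and between 26.7 and 102 times that median in 72 h replicate 1. The other 6 genes lay between 0.767 and 1.28 times that median in the same libraries. One gene, Ace, rose at 72 h against air and against 24 h. No gene of the 10 was called at 24 h against air. In such bulk samples, fewer cells of a type and less RNA per cell cannot be told apart.

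**Figure D1:**
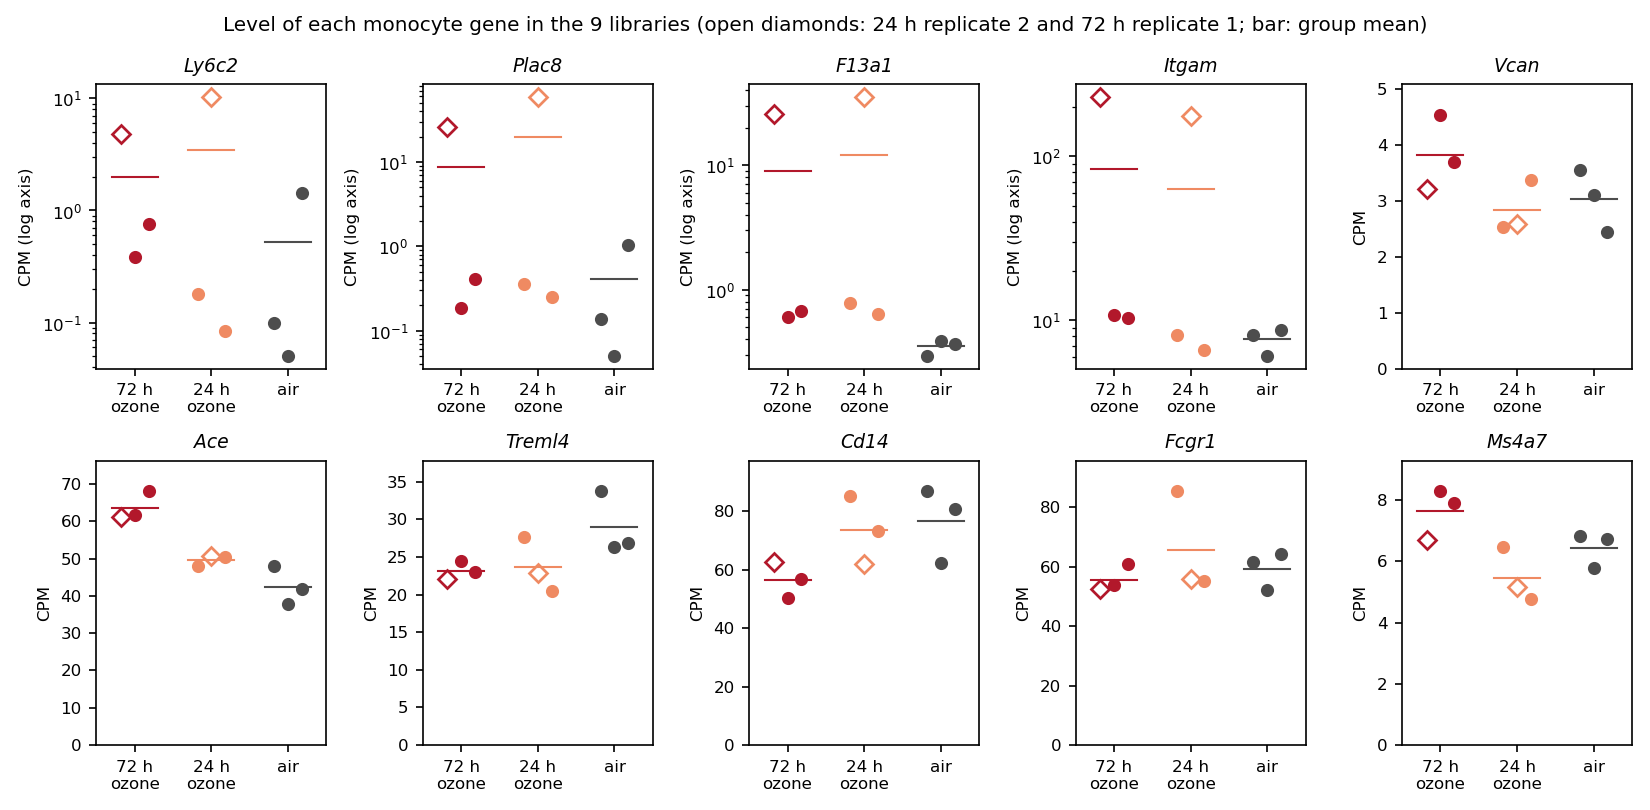
Level of each of the 10 genes in CPM for 72 h, 24 h and air, 1 point per mouse, with a bar at the group mean. Ly6c2, Plac8, F13a1 and Itgam are on log axes, and their open diamonds (72 h replicate 1 and 24 h replicate 2) lie far above all other points. In the other 6 panels, on linear axes, the diamonds lie among or close to the points.

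Ly6c2 encodes a form of the surface antigen Ly6C that marks classical monocytes. It lies at chr15:75108158-75111970 on the minus strand. Its level was 4.82, 0.386 and 0.754 CPM in the 3 libraries of 72 h, 0.18, 10.2 and 0.0843 CPM in those of 24 h, and 0.0985, 0.0507 and 1.43 CPM in air. The highest values were those of 24 h replicate 2 and 72 h replicate 1, and the next highest was an air library, so the groups overlapped. Leaving both libraries aside, the gene rested on 3 to 86 estimated counts per library, of which only 1 in 9 libraries gave a whole number. With all 9 libraries it averaged 1.99 ± 2.46 CPM at 72 h, 3.49 ± 5.82 CPM at 24 h and 0.527 ± 0.783 CPM in air (SD, n = 3 each). The log2 fold change was 1.90 ± 2.05 (SE) at 72 h against air and 2.72 ± 2.09 at 24 h against air. Neither passed edgeR's quasi-likelihood test, with Benjamini-Hochberg adjusted p of 0.589 and 0.527. In the 7 other libraries they were 0.11 ± 1.3 and -1.98 ± 1.58, so that the sign at 24 h turned.

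Plac8, a small cysteine-rich protein abundant in classical monocytes and also made by lymphocytes and neutrophils, lies at chr5:100553725-100572245 on the minus strand. It had 25.8, 0.184 and 0.408 CPM at 72 h, 0.36, 58.3 and 0.253 CPM at 24 h, and 0.138, 0.0507 and 1.03 CPM in air. Apart from the same 2 libraries, the highest level was again in air replicate 3, as for Ly6c2. Its log2 fold change was 4.41 ± 2.83 at 72 h against air and 5.57 ± 2.97 at 24 h against air, with adjusted p of 0.365 and 0.397 by edgeR. Both turned negative without the 2 libraries, to -0.46 ± 1.14 and -0.42 ± 1.13. The 95% intervals then ran from -3.21 to 2.28 and from -3.16 to 2.33, so that a change of several-fold either way was within them.

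F13a1 encodes the catalytic subunit of coagulation factor XIII, which crosslinks fibrin and is made by monocytes, some tissue macrophages and megakaryocytes. The gene, at chr13:36867178-37050244 on the minus strand, had 25.5, 0.607 and 0.673 CPM at 72 h. At 24 h it had 0.781, 34.9 and 0.632 CPM, and in air 0.295, 0.389 and 0.366 CPM. All 6 ozone libraries were above all 3 air libraries, and this held with the 2 libraries that stood apart and without them. With all 9 libraries the log2 fold change was 4.66 ± 2.26 at 72 h against air (adjusted p = 0.251, edgeR) and 5.10 ± 2.30 at 24 h against air (adjusted p = 0.351). From the 7 other libraries the estimates were 0.88 ± 0.27 and 1.01 ± 0.27, with 95% intervals of 0.27 to 1.5 and 0.39 to 1.62. Their adjusted p of 0.0826 and 0.165 by edgeR missed the threshold, and they rested on 15 to 39 counts per library. Markers of platelets, cells that descend from megakaryocytes, summed over 7 genes to 1.78 to 43.4 CPM at 72 h, 1.6 to 35.1 CPM at 24 h and 1.34 to 2.25 CPM in air, with Gp1bb at 0 in the 7 libraries. Most of the highest of these sums was Pf4, at 28 CPM in 72 h replicate 1 and 23.8 CPM in 24 h replicate 2, a gene also in the macrophage lists used here. The part of platelets in the F13a1 result was not tested.

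Itgam encodes the integrin subunit CD11b, which pairs with the product of Itgb2 to form complement receptor 3. It lies at chr7:128062640-128118491 on the plus strand. Its level was 229, 10.8 and 10.4 CPM at 72 h, 8.11, 176 and 6.6 CPM at 24 h, and 8.17, 6.09 and 8.78 CPM in air. The 3 libraries of 72 h were above all 3 air libraries, whereas those of 24 h overlapped air. Its log2 fold change was 3.44 ± 1.80 at 72 h against air (adjusted p = 0.279, edgeR) and 3.05 ± 1.78 at 24 h against air (adjusted p = 0.426). In the 7 other libraries it was 0.49 ± 0.16 at 72 h against air (adjusted p = 0.0931) and -0.06 ± 0.16 at 24 h against air (adjusted p = 0.9). Between 72 h and 24 h it was then 0.55 ± 0.18 (adjusted p = 0.0664), and it passed the threshold, with 0.54 and an adjusted p of 0.0401, when air replicate 2 was left out as well. A coding gene on the same strand, Gm49368, overlaps Itgam and had 2 to 49 counts, against 313 to 11497 for Itgam.

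In those 2 libraries the 4 genes did not stand in 1 ratio. The level in 24 h replicate 2 was 2.12 times that in 72 h replicate 1 for Ly6c2 (95% exact counting interval 1.81 to 2.48), 2.26 times for Plac8 (2.11 to 2.41) and 1.37 times for F13a1 (1.27 to 1.47). For Itgam it was 0.768 times (0.747 to 0.79), so that Itgam was lower in 24 h replicate 2 while the other 3 genes were higher there. These intervals cover counting error only. The summed markers of other cells spread over a wider range of ratios. T cell markers were 10 times, natural killer cell markers 2.52 times, B cell markers 1.76 times and neutrophil markers 1.16 times as high in 24 h replicate 2 as in 72 h replicate 1. Erythroid markers were 1.16 times, dendritic cell markers 1.01 times, interstitial macrophage markers 0.957 times and resident alveolar macrophage markers 0.867 times as high. Platelet markers were 0.808 times, serous cavity macrophage markers 0.775 times and those of endothelium and fibroblasts 0.732 times as high. The ratios of Ly6c2 and Plac8 thus lay between those of B cell and natural killer cell markers, and that of Itgam between those of endothelium and fibroblast markers and serous cavity macrophage markers. Ly6C and CD11b are also known on some lymphocytes and on cavity macrophages, and which cells gave these reads was not tested.

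**Figure D2:**
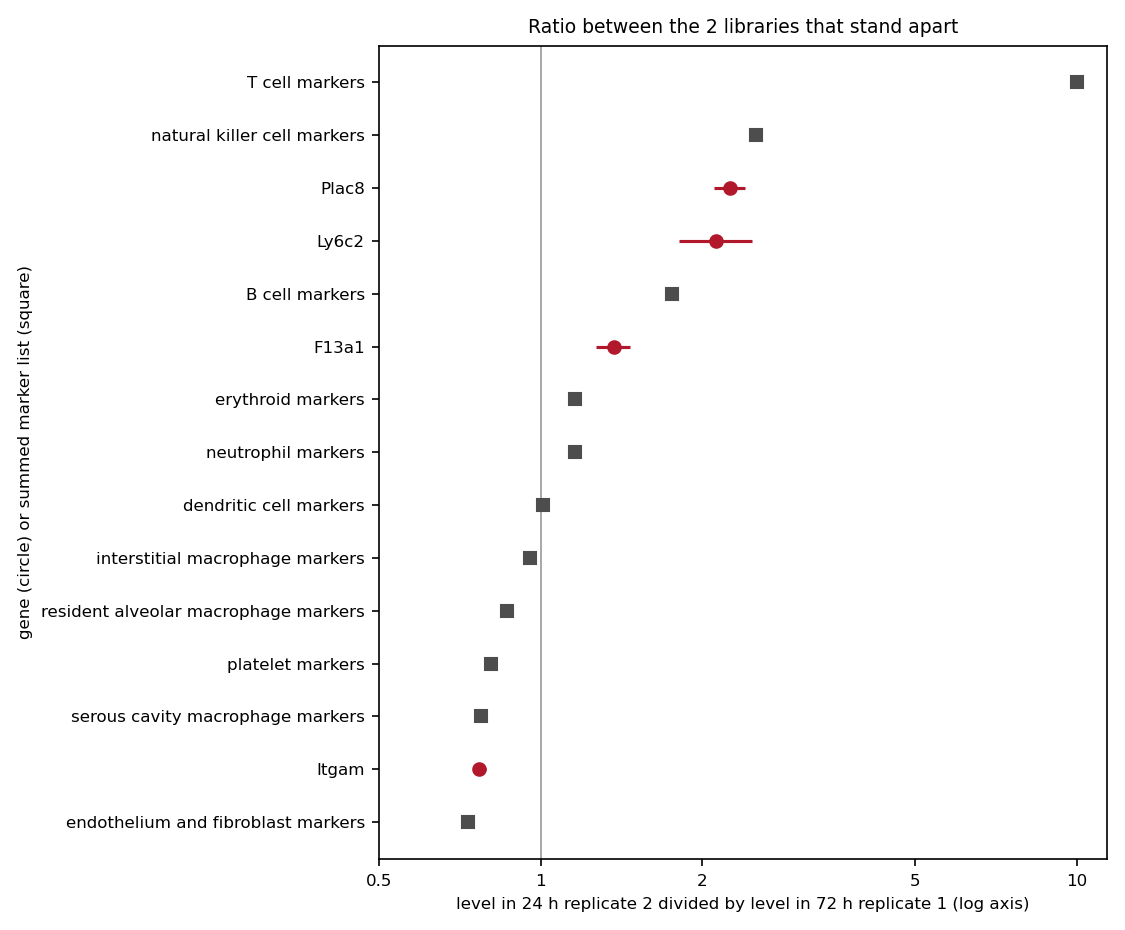
Level in 24 h replicate 2 divided by the level in 72 h replicate 1, on a log axis, for Ly6c2, Plac8, F13a1 and Itgam (circles, with 95% counting intervals) and for summed marker lists of other cells (squares). T cell markers have the highest ratio, 10, and Itgam, at 0.768, lies between endothelium and fibroblast markers at 0.732 and serous cavity macrophage markers at 0.775.

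Vcan, the fourth classical monocyte gene beside Ly6c2, Plac8 and F13a1, encodes versican, a large matrix proteoglycan, and lies at chr13:89655312-89742509 on the minus strand. It showed nothing of their pattern. Its level was 3.21, 4.53 and 3.69 CPM at 72 h, 2.52, 2.59 and 3.37 CPM at 24 h, and 3.54, 3.1 and 2.43 CPM in air. The 2 libraries that stood apart were 0.767 and 0.95 times the median of the others. The log2 fold change was 0.33 ± 0.20 at 72 h against air (adjusted p = 0.331, edgeR) and -0.10 ± 0.20 at 24 h against air (adjusted p = 0.829). An antisense gene, Gm4117, overlaps Vcan and had 67 to 199 counts, against 124 to 246 for Vcan. No source used here says if reads were counted by strand, so the level of Vcan is uncertain.

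Ace and Treml4 are genes of the non-classical kind. Ace encodes angiotensin-converting enzyme, which cuts angiotensin I to angiotensin II and is best known from the lung endothelium. At chr11:105967945-105989964 on the plus strand, it had 61.2, 61.7 and 68 CPM at 72 h, 47.9, 50.7 and 50.3 CPM at 24 h, and 47.9, 37.7 and 41.9 CPM in air. Every library of 72 h was above every library of 24 h and of air, and the 2 libraries that stood apart lay with their groups. The means were 63.7 ± 3.8 CPM at 72 h, 49.6 ± 1.52 CPM at 24 h and 42.5 ± 5.13 CPM in air (SD, n = 3 each). Ace rose by 0.58 ± 0.09 on the log2 scale at 72 h against air (95% interval 0.39 to 0.78, adjusted p = 0.0226, edgeR). Relative to 24 h, it rose by 0.36 ± 0.09 (0.16 to 0.56, adjusted p = 0.0255). At 24 h against air the difference was 0.23 ± 0.09 with an adjusted p of 0.301.

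The estimates of Ace hardly moved without the 2 libraries, at 0.63 ± 0.10 (adjusted p = 0.0106) at 72 h against air and 0.42 ± 0.11 (adjusted p = 0.036) at 72 h against 24 h. Without air replicate 2 as well they were 0.55 (adjusted p = 0.0267) and 0.42 (adjusted p = 0.0351). When single libraries were left out of the 9, the fold change at 72 h against air stayed between 0.49 and 0.67, but it passed the threshold in only 2 of 9 such fits. Those were the fits without air replicate 1 and without 24 h replicate 2. Between 72 h and 24 h the range was 0.30 to 0.39, and the threshold was passed in 5 of 9 fits and missed without 24 h replicate 1 or 3, or without 72 h replicate 2 or 3. Markers of endothelium and fibroblasts, 9 genes, summed to 179 to 193 CPM at 72 h, 131 to 142 CPM at 24 h and 138 to 145 CPM in air, with Cldn5 of endothelium at 0 in the 7 libraries. Most of that sum was Vwf, at 168 to 179 CPM at 72 h, 84.7 to 134 CPM at 24 h and 137 to 144 CPM in air. In 24 h replicate 2 Vwf gave 84.7 of 142 CPM, with Pecam1 at 27.2 CPM and Dcn, also in the list, at 13.3 CPM. The endothelial gene Pecam1 had at most 0.877 CPM in the 7 libraries. Col1a1, Col1a2 and Col3a1 of fibroblasts had 1.44 to 1.81 CPM in 72 h replicates 2 and 3. In air and in 24 h replicates 1 and 3 they had 0 to 0.0832 CPM. The 7 libraries thus also differed in these genes of other cells, whose part in the calls from 7 libraries was not tested. Dendritic cell markers, 9 genes with none at 0, summed to 103 to 116 CPM at 72 h, 46 to 103 CPM at 24 h and 44.1 to 55 CPM in air. Both sums were thus highest at 72 h, as Ace was, apart from the dendritic cell sum of 103 CPM in 24 h replicate 2, and their part in the result was not tested.

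Treml4, a receptor of the TREM-like family found on non-classical monocytes and some macrophages, lies at chr17:48264295-48275360 on the plus strand. It had 22, 24.5 and 23 CPM at 72 h, 27.6, 22.8 and 20.5 CPM at 24 h, and 33.7, 26.3 and 26.9 CPM in air. All 3 libraries of 72 h were below all 3 of air. The log2 fold change of -0.32 ± 0.13 at 72 h against air had an adjusted p of 0.163 by edgeR, and that of -0.29 ± 0.13 at 24 h against air one of 0.339. Neither passed the threshold. From 7 libraries the value at 72 h against air was -0.26 ± 0.15 (adjusted p = 0.307).

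The remaining genes belong to the monocyte and macrophage lines more widely. Cd14, at chr18:36725067-36726798, encodes the co-receptor that hands lipopolysaccharide to TLR4. It had 62.5, 50.3 and 56.8 CPM at 72 h, 85.3, 61.8 and 73.3 CPM at 24 h, and 86.8, 62.4 and 80.8 CPM in air. The lowest air library, at 62.4 CPM, was just below the highest of 72 h. The log2 fold change at 72 h against air was -0.44 ± 0.15 (adjusted p = 0.124, edgeR), and at 72 h against 24 h -0.38 ± 0.15 (adjusted p = 0.126). From 7 libraries both were larger in size, at -0.50 ± 0.15 (adjusted p = 0.0865) and -0.55 ± 0.16 (adjusted p = 0.0597). They passed the threshold, at -0.63 (adjusted p = 0.0222) and -0.55 (adjusted p = 0.0234), when air replicate 2 was left out as well.

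Fcgr1, the high-affinity receptor for immunoglobulin G (CD64), is carried by both monocytes and macrophages and lies at chr3:96282909-96293969 on the minus strand. It had 52.4, 54 and 60.8 CPM at 72 h, 85.4, 55.9 and 55.4 CPM at 24 h, and 61.7, 52.3 and 64.3 CPM in air. Only 24 h replicate 1 stood above the rest. Its log2 fold change was -0.09 ± 0.17 at 72 h against air and 0.14 ± 0.17 at 24 h against air, with adjusted p of 0.76 and 0.682 by edgeR. The 95% intervals, -0.48 to 0.30 and -0.25 to 0.53, leave room for differences of up to about that size. From 7 libraries the values were -0.03 ± 0.19 and 0.25 ± 0.19.

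Ms4a7 belongs to the MS4A family of membrane proteins with 4 spans, and in mice it is used as a mark of macrophages that derive from monocytes. It lies at chr19:11321039-11336146 on the minus strand. It had 6.69, 8.28 and 7.91 CPM at 72 h, 6.45, 5.17 and 4.76 CPM at 24 h, and 6.81, 5.77 and 6.72 CPM in air. All 3 libraries of 72 h were above all 3 of 24 h. The difference of 0.48 ± 0.15 between them on the log2 scale just missed the threshold (adjusted p = 0.0519, edgeR) and passed it with DESeq2 (adjusted p = 0.0263) and without 24 h replicate 1 (0.63, adjusted p = 0.0455). From 7 libraries it was 0.55 ± 0.16 (adjusted p = 0.0531). Relative to air, the fold change was 0.25 ± 0.15 at 72 h (adjusted p = 0.317), and at 24 h against air -0.24 ± 0.15 (adjusted p = 0.435).

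**Figure D3:**
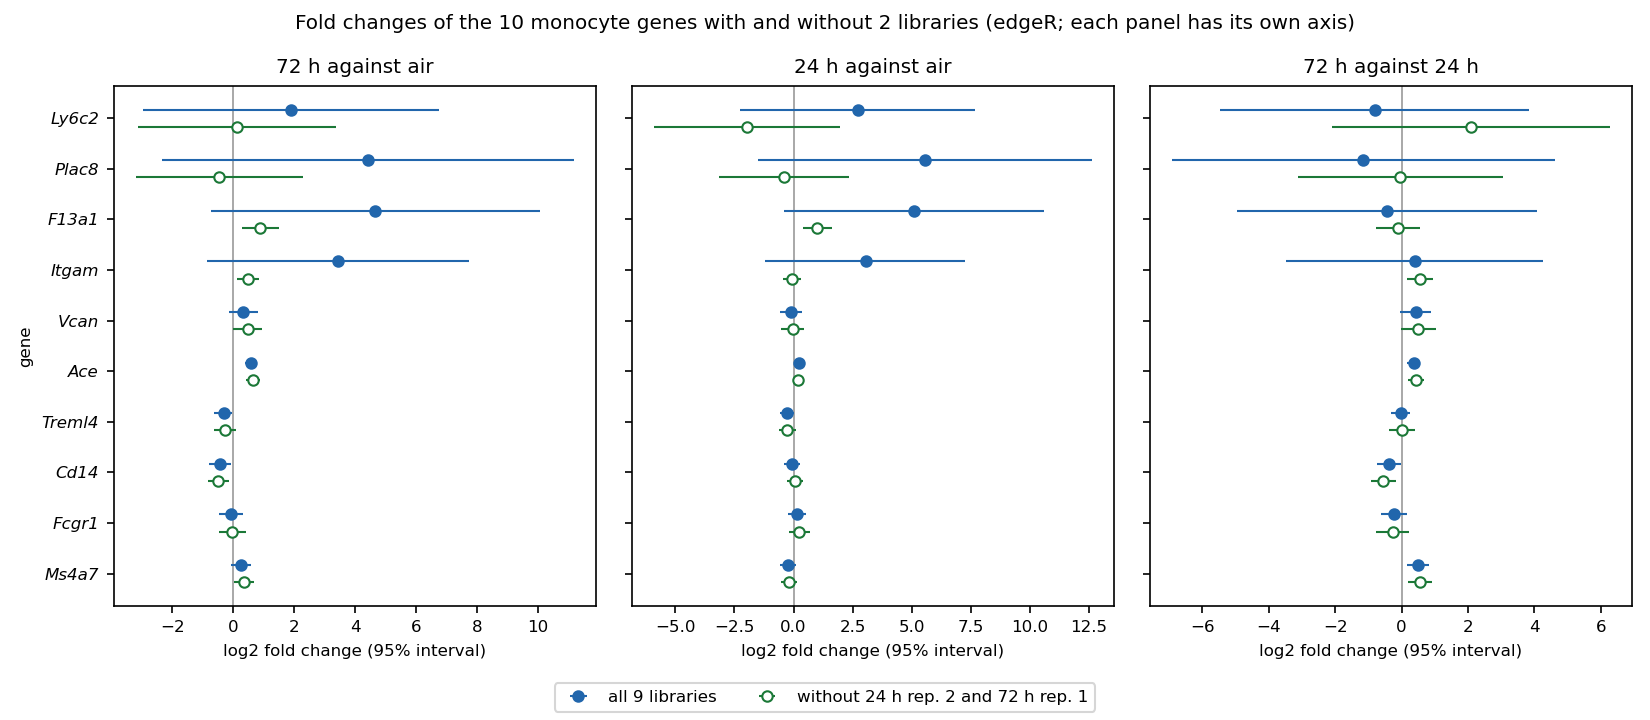
Log2 fold changes of the 10 genes with 95% intervals from edgeR in the 3 comparisons, from all 9 libraries and from the 7 without 24 h replicate 2 and 72 h replicate 1. Ly6c2, Plac8, F13a1 and Itgam have wide intervals across 0 with all 9 libraries, and Ace lies above 0 at 72 h against air and against 24 h in both fits.

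Counted over the set, 0 of the 10 genes were called at 24 h against air, where 1 of 15713 genes tested was (0.00636%). At an unadjusted p under 0.05 there were 2, Ace and Treml4, against 14.7% of all genes. DESeq2, which called 562 genes in all, called 0 of the 6 to which it gave an adjusted p. In all 3 comparisons it gave none to Ly6c2, Plac8, F13a1 and Itgam. The 24 h and air libraries did not overlap for 2 of the 10, F13a1 and Ace, both higher (Ace by less than the rounding of its values above), where 10.4% of all genes were higher and 9.06% lower without overlap. At 72 h against air 1 of 10 was called, Ace, against 5.47% of all genes (1.71% higher, 3.77% lower). Over all genes, the split of 268 higher and 592 lower depended on the scaling, at 224 and 282 with the size factors of DESeq2 and 192 and 107 with upper quartile scaling. At an unadjusted p under 0.05 there were 3 of the 10, against 25.3% of all genes. There 3 genes were higher without overlap, F13a1, Itgam and Ace, and 1 was lower, Treml4, against 17.5% and 22.1% of all genes. At 72 h against 24 h 1 of 10 was called, Ace again, against 18.2% of all genes (5.39% higher, 12.8% lower). Over all genes, 847 were higher and 2008 lower, and 1163 and 1302 with upper quartile scaling. Ace and Ms4a7 were higher without overlap, against 15.0% of all genes, and none was lower, against 22.7%. The share called was thus near or below that of all genes in each comparison but 72 h against air, where the share of the 10 is 1 gene.

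Without the 2 libraries that stood apart, edgeR called the same numbers of the 10, namely 0 at 24 h against air, where 0.0444% of all genes tested were called (0.0254% higher, 0.0190% lower), and 1 at 72 h against air, where 7.12% were (4.46% higher, 2.66% lower). Between 72 h and 24 h it was 1 as well, where 15.1% of all genes were called (6.59% higher, 8.50% lower). Again Ace was the gene. An unadjusted p under 0.05 was reached by 1 of the 10 at 24 h against air (13.8% of all genes) and by 5 at 72 h against air (27.5%). Between 72 h and air 5 of the 10 were then higher without overlap, F13a1, Vcan, Itgam, Ace and Ms4a7, where 22.3% of all genes were, and Treml4 and Cd14 were lower, where 27.9% were. At 72 h against 24 h 5 were higher without overlap, Ly6c2, Vcan, Itgam, Ace and Ms4a7, against 31.7% of all genes, and Cd14 was lower, against 33.9%. At 24 h against air F13a1 and Ace remained the 2 that were higher, against 14.9%. Groups of 2 libraries overlap less often than groups of 3, so these shares are read only beside those of all genes.

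Set in order of level per length, as CPM per kb of exon in the median of the 7 libraries, Cd14 came first with 42.3, followed by Fcgr1 with 23.5, Treml4 with 13.2 and Ace with 9.06. Itgam had 1.63, Ms4a7 1.51, Vcan 0.233, Plac8 0.159, F13a1 0.0901 and Ly6c2 0.0658. The ranges over these libraries overlapped for each neighbouring pair other than Fcgr1 and Treml4, Ace and Itgam, and Ms4a7 and Vcan. Cd14 and Fcgr1 lay between 20.2 and 50.1 CPM per kb, and Treml4 and Ace between 7.13 and 16.9 CPM per kb. Itgam and Ms4a7 lay between 1.07 and 2.15 CPM per kb, and the 4 classical monocyte genes between 0.0185 and 0.648 CPM per kb. In 24 h replicate 2 the order was another, with Plac8 at 36.6, Cd14 at 35.7 and Itgam at 35 CPM per kb. In 72 h replicate 1 Itgam led with 45.6 CPM per kb, above Cd14 with 36.1.

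The set holds the classical monocyte genes at the lowest levels outside those 2 libraries, so a further 12 genes of classical monocytes were read, of which 11 passed the filter. Of these, edgeR called 1 higher and 1 lower at 72 h against air, where 5.47% of all genes were called. The median log2 fold change of the 11 was 0.79 at 72 h against air and 0.66 at 24 h against air, but 0.45 and -0.03 in the 7 libraries, against -0.01 and 0.01 (0 and 0 in the 7 libraries) over all genes tested. None was called at 24 h against air, where 0.00636% of all genes were. There 4 had an unadjusted p under 0.05, against 14.7% of all genes, and DESeq2 called 0 higher and 1 lower. Ms4a6c, another MS4A protein, which lies 133 kb from Ms4a7, had 48.9, 54.3 and 57.1 CPM at 72 h, 35.2, 40.3 and 33 CPM at 24 h, and 32.5, 29.9 and 30.5 CPM in air. All libraries of 72 h were above all others. It rose by 0.79 ± 0.09 at 72 h against air (adjusted p = 0.00697, edgeR) and by 0.56 ± 0.09 at 72 h against 24 h (adjusted p = 0.00748). Mgst1, a microsomal glutathione transferase, averaged 171 ± 24.5 CPM at 72 h, 179 ± 11.6 CPM at 24 h and 249 ± 12.3 CPM in air. It fell by 0.54 on the log2 scale at 72 h against air (SE 0.11, adjusted p = 0.0319). Both were also called in the 7 libraries, with adjusted p of 0.000342 for Ms4a6c and 0.0103 for Mgst1, and without air replicate 2 too, with 0.0027 and 0.0315. Leaving out single libraries kept the call in 5 of 9 fits for Ms4a6c at 72 h against air, in 8 of 9 at 72 h against 24 h, and in 1 of 9 for Mgst1. Ms4a6c missed the threshold at 72 h against air without air replicate 2 or 3 or 72 h replicate 2 or 3, and at 72 h against 24 h without 72 h replicate 2. Mgst1 passed it only without 24 h replicate 2.

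Among the classical genes, edgeR called 3 more higher at 72 h against air when the 2 libraries were left out, but not with all 9. These were picked out after their values were seen. With Ms4a6c and Mgst1, 4 of the 11 were higher and 1 lower in that fit, against 4.46% and 2.66% of all genes. Ccr2, the receptor through which classical monocytes leave the marrow, had 55, 33 and 34.5 CPM at 72 h, 24.1, 56.7 and 18 CPM at 24 h, and 22.6, 15.4 and 20.7 CPM in air. Its log2 fold change was then 0.81 ± 0.18 (adjusted p = 0.0433, edgeR), and 0.66 (adjusted p = 0.0499) without air replicate 2 too. Hp, which encodes haptoglobin, had a fold change of 0.78 ± 0.17 (adjusted p = 0.0345), and its call was lost without air replicate 2 too (0.79, adjusted p = 0.0804). Ly6c1 had 0.816, 0.386 and 0.285 CPM at 72 h, 0.02, 0.813 and 0.105 CPM at 24 h, and 0.0197, 0.0507 and 0.0166 CPM in air (adjusted p = 0.0237, and 0.0481 without air replicate 2 too). No fold is given for Ly6c1, since its air libraries were at or under 3 counts each. With all 9 libraries, DESeq2 called 3 of the list higher at 72 h against air and 1 lower, against 626 and 1272 over all genes. Ccr2 (adjusted p = 0.0449) and Ly6c1 (adjusted p = 0.0221) were among those higher. With only 24 h replicate 2 left out, edgeR called both as well (adjusted p = 0.0461 and 0.0165). Dendritic cells also express Ccr2, and the dendritic cell sums given above were higher in each library of 72 h than in each of air. Their part in these results was not tested.

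**Figure D4:**
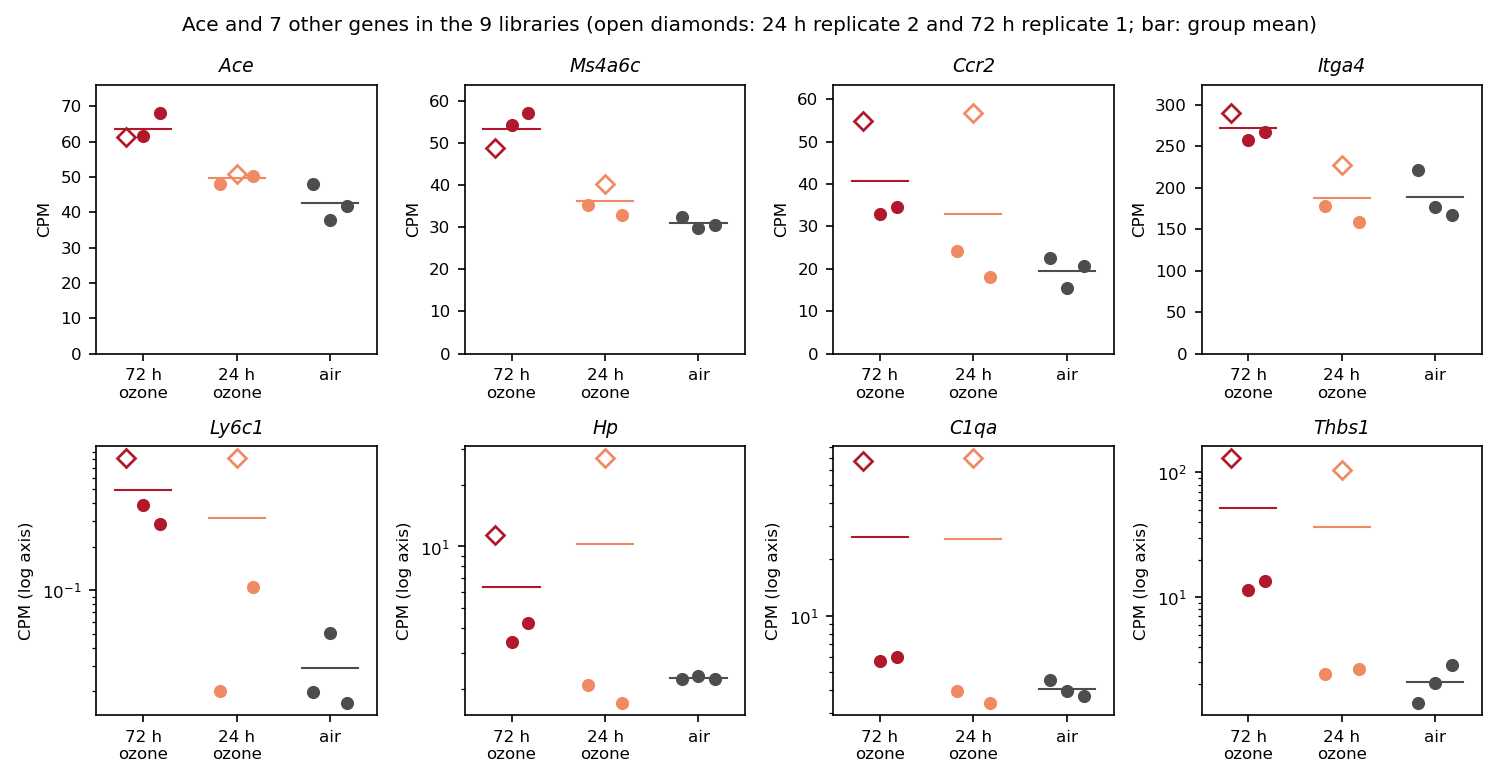
CPM of Ace, Ms4a6c, Ccr2 and Itga4 (linear axes) and of Ly6c1, Hp, C1qa and Thbs1 (log axes) at 72 h, at 24 h and in air, 1 point per mouse, with a bar at the group mean and open diamonds for 72 h replicate 1 and 24 h replicate 2. Filled points of 72 h lie above the air points in every panel, and the open diamonds are far above the rest in the log panels other than that of Ly6c1, where they are the highest by less.

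None of the other 12 non-classical monocyte genes was called in any of the 3 comparisons. Of all genes, 5.47% were called at 72 h against air, 0.00636% at 24 h against air and 18.2% at 72 h against 24 h. In each, 1 of the 12 had an unadjusted p under 0.05, against 25.3%, 14.7% and 33.3% of all genes in the same order. DESeq2 called 0 of the 12 at 24 h and at 72 h against air, and 1 lower at 72 h against 24 h. The 2 with the highest level were Itgal, an integrin subunit of leukocytes, and Cebpb, a transcription factor. Itgal averaged 684 ± 76 CPM at 72 h, 641 ± 58.7 CPM at 24 h and 635 ± 58 CPM in air, and Cebpb 97.1 ± 8.16, 124 ± 21 and 126 ± 28.6 CPM in the same order. Itgal differed by 0.11 ± 0.11 on the log2 scale at 72 h against air (adjusted p = 0.569, edgeR) and Cebpb by -0.37 ± 0.17 (adjusted p = 0.218). With those 2 libraries left out, Ceacam1, an adhesion molecule, was called higher (1.31 ± 0.28, adjusted p = 0.0422) and Klf2, a factor needed by patrolling monocytes, lower (-0.66 ± 0.16, adjusted p = 0.0459), against 4.46% and 2.66% of all genes, both picked out after their values were seen. Without air replicate 2 too, Ceacam1 was still called (1.04, adjusted p = 0.00961), whereas Klf2 was not (-0.68, adjusted p = 0.0914). With all 9 libraries Klf2 had the opposite sign, and neither gene was called.

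The 13 genes of macrophages that derive from monocytes gave high medians and no call. Their median log2 fold change was 2.29 at 72 h against air and 2.23 at 24 h against air, against -0.01 and 0.01 over all genes tested, and 0 of 13 were called in any comparison. With no adjustment, p was under 0.05 for 1 at 72 h against air, 0 at 24 h against air and 1 at 72 h against 24 h, and DESeq2 called 0, 0 and 1. Of all genes, 25.3%, 14.7% and 33.3% had such an unadjusted p in the same order, and edgeR called 5.47%, 0.00636% and 18.2%. In the 7 libraries the medians were 0.29 and -0.03. The 2 most abundant, Gpnmb and Ms4a6d, averaged 486 ± 24.7 and 123 ± 14.5 CPM at 72 h, 357 ± 83 and 136 ± 13.7 CPM at 24 h, and 414 ± 41.8 and 117 ± 1.65 CPM in air. Neither was called, with adjusted p of 0.39 and 0.695 by edgeR at 72 h against air. With those 2 libraries left out, Thbs1 and C1qa were called higher at 72 h against air, against 4.46% of all genes, and Thbs1, C1qa, C1qb and C1qc at 72 h against 24 h, against 6.59%, all picked out after their values were seen. Thbs1 encodes thrombospondin 1, a matrix protein made by platelets and macrophages. It had 130, 11.5 and 13.4 CPM at 72 h, 2.42, 105 and 2.66 CPM at 24 h, and 1.42, 2.03 and 2.84 CPM in air. All 3 libraries of 72 h were above all 3 of air, and in 7 libraries its fold change was 2.58 ± 0.24 (adjusted p = 0.00155, edgeR), and 2.55 (adjusted p = 0.011) without air replicate 2 too. C1qa, a chain of complement C1q, had 66.9, 5.72 and 5.99 CPM at 72 h, 3.94, 69.6 and 3.41 CPM at 24 h, and 4.49, 3.92 and 3.69 CPM in air, with 0.56 ± 0.14 (adjusted p = 0.0479) in 7 libraries. Its call was lost without air replicate 2 too (0.54, adjusted p = 0.111).

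**Figure D5:**
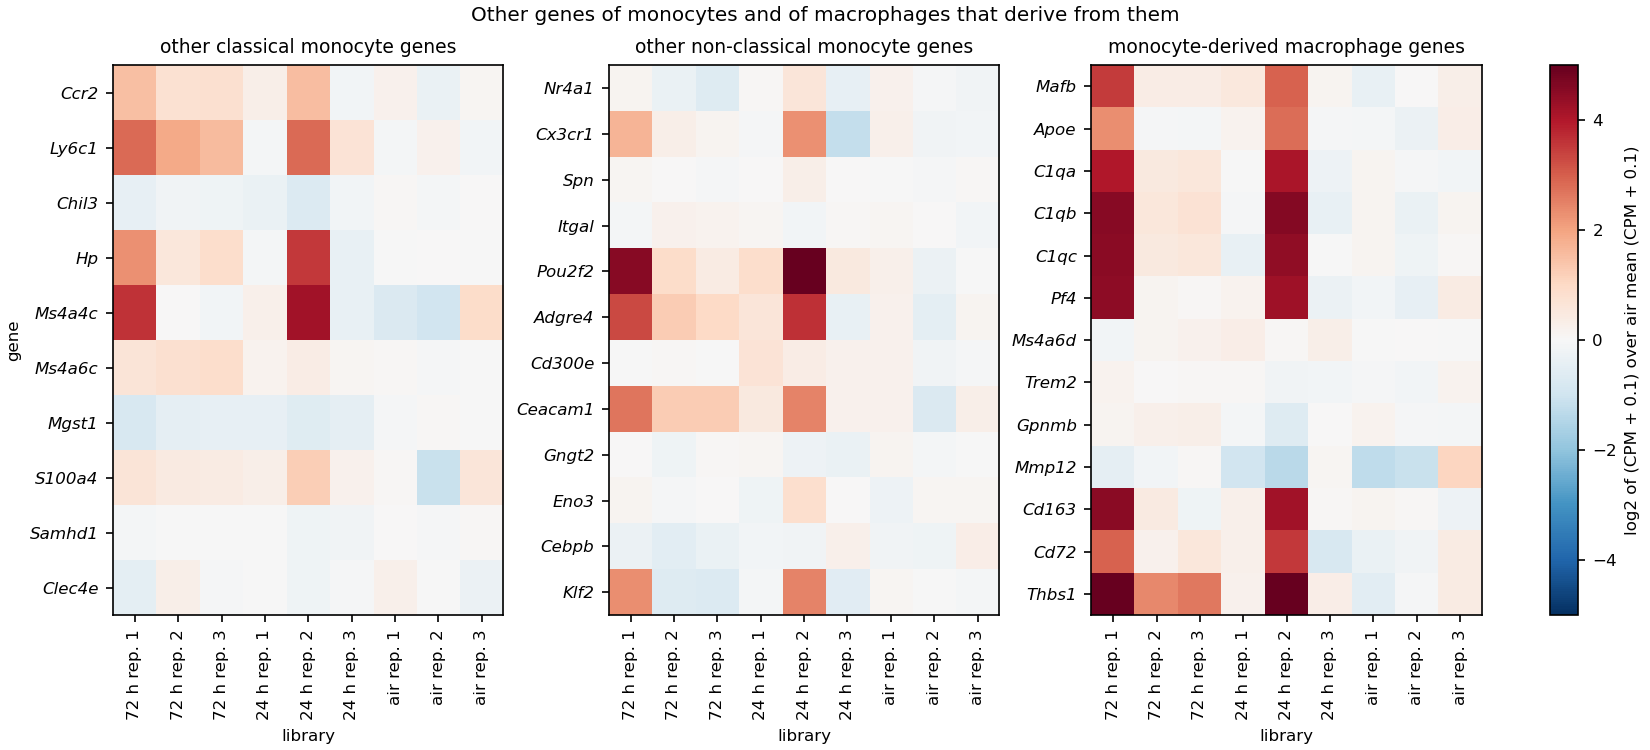
Log2 level of the classical monocyte, non-classical monocyte and monocyte-derived macrophage genes that were tested, all but 1 of them, in each library, relative to the air mean (0.1 CPM added to each value). Red is above the air mean and blue below, and the darkest shades also stand for values beyond the ends of the scale. The columns of 72 h replicate 1 and 24 h replicate 2 are dark red for Pou2f2, the C1q genes, Pf4, Cd163 and Thbs1, while Ms4a6c is only faintly red in every column of 72 h.

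Of 14 genes for monocyte recruitment, the ligands and receptors that draw monocytes into tissue, 11 were tested. None was called at 72 h against air (2 at an unadjusted p under 0.05, 2 higher with DESeq2) or at 24 h against air (1 at an unadjusted p under 0.05, 0 with DESeq2). Of all genes, 5.47% and 0.00636% were called in these comparisons, and 25.3% and 14.7% had an unadjusted p under 0.05. Between 72 h and 24 h 1 of the 11 was called, against 18.2% of all genes. It was Itga4, the integrin subunit that binds VCAM1. It averaged 272 ± 16.1 CPM at 72 h, 188 ± 35.9 CPM at 24 h and 189 ± 29 CPM in air, and rose by 0.53 ± 0.15 at 72 h against 24 h (adjusted p = 0.0403, edgeR). Leaving out single libraries kept this call in 3 of 9 fits, those without air replicate 1 or 3 or 24 h replicate 2, and without the 2 libraries it was 0.66 ± 0.13 (adjusted p = 0.0199). Of the 11, Ccr2 and Itga4 were called higher at 72 h against air in the 7 libraries, where 4.46% of all genes were, Itga4 by 0.50 ± 0.12 (adjusted p = 0.0443). The call of Itga4 was lost without air replicate 2 too (0.46, adjusted p = 0.105). Of 23 relatives of the 10 genes, 20 were tested and edgeR called only Ms4a6c, at 72 h against air and at 72 h against 24 h. In these comparisons DESeq2 called 2 and 1 of the relatives higher and 0 lower, where it called 626 and 1168 of all genes higher. For 24 h against air the count was 0 with edgeR and 0 with DESeq2, and 4 had an unadjusted p under 0.05. Without the 2 libraries Ly6c1 and Tlr4 were called as well at 72 h against air, and the fold change of Tlr4, the partner of Cd14, was 0.24 ± 0.05 (adjusted p = 0.0336). That call was lost without air replicate 2 too (0.24, adjusted p = 0.0901).

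For each of the 10 genes the 3 closest profiles were sought among 11035 genes, as the smallest root mean square difference of centred log2 CPM over all 9 libraries. For Ly6c2 these were Ifi208 (0.56), Ms4a4b (0.57) and Ifi206 (0.58). For Plac8 they were Lef1 (0.54), Ralgps2 (0.59) and Gimap6 (0.65), the first a transcription factor of lymphocytes. Lef1 had 25.6 CPM in 24 h replicate 2 and 6.63 CPM in 72 h replicate 1, against 0.0169 to 0.333 CPM elsewhere. For F13a1 they were Mapk11 (0.28), Trib2 (0.31) and Slc28a2 (0.36). Those of Itgam were Cmklr1 (0.16), C1qb (0.16) and Pf4 (0.20), genes of macrophages and platelets. Cmklr1, the chemerin receptor, had 17.6 and 24.9 CPM in those 2 libraries and 0.548 to 1.10 CPM in the others. All the genes named for these 4 were higher in those 2 libraries than in any other.

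The closest profiles of the other 6 genes lay at 0.06 to 0.12. Those of Ace were Lamc1 (0.06), a laminin chain, Cd86 (0.11), a co-stimulatory ligand of antigen-presenting cells, and Gng12 (0.11). Those of Vcan were Arhgap26, Atp8b4 and Xylt1, those of Treml4 Spryd7, Rcbtb2 and Slc25a16, and those of Cd14 Htra3, Amigo2 and Pwp2. Fcgr1 was closest to Siglece, Sema4a and Bcas1, and Ms4a7 to Ddx60, Klrb1b and Ccdc80. Over the 7 libraries alone Ace kept Lamc1 in first place (0.06), now followed by Dysf (0.07) and Junos (0.09). Itgam was then closest to Klrb1b (0.07), Shroom4 (0.08) and Jpx (0.09), none of which was among its closest over 9 libraries. F13a1 was closest to Adora2b (0.16), Myrf (0.21) and Syt11 (0.21), and Plac8 to Ifi213 (0.25), Ifi206 (0.29) and Cd5 (0.33). Ly6c2 kept all 3, in another order. The likeness over so few libraries describes these profiles and carries no test.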

How the data were processed

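RNA from cells lavaged from the lungs of 9 mice was sequenced from stranded total RNA libraries, per the labels' protocols. The submitters' processing notes name Trimmomatic 0.39, FastQC, Salmon and DESeq2, and the GRCm38.p6 build. No source used here gives the annotation or the use of strand. The authors deposited estimated counts per gene, of which 80.5% are whole numbers. GENCODE M21 gave a symbol and place to 54107 of 54281 identifiers, and 174 had no symbol.

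The estimated counts were rounded and analysed in R 4.3.3 with edgeR 4.0.16. The steps were filterByExpr (15713 genes kept), TMM scaling, and 1 robust quasi-likelihood fit of all 9 libraries in 3 groups. The SE is the log2 fold change over the square root of F. The Benjamini-Hochberg adjustment ran over every gene tested, and a gene with adjusted p under 0.05 is referred to as called. The fit was repeated on 7 libraries (15753 genes), without 24 h replicate 2 and 72 h replicate 1. CPM were computed from these counts and the TMM-scaled library sizes. Totals of 47095543 to 60248305 counts limit precision mainly for Ly6c2, Plac8 and F13a1. The fit of 9 libraries was tried on simulated counts with known changes. Over the 3 comparisons it recovered 16.4 to 26.9% of 1.5-fold changes and 46.3 to 52.2% of 2-fold changes. Of 4-fold changes it recovered 59.1 to 65.2%. A gene that was not called may thus still differ. DESeq2 1.42.0, other scalings and filters, single libraries left out and a replicate block were tried as alternatives. A fit that also left out air replicate 2 was chosen after seeing the data, as was the use of these alternatives on genes other than the 10.

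The 10 genes, the 5 further gene lists and the 11 marker lists were chosen with earlier results of these data known. Named were all 10 genes, up to 4 called genes of each list or else its 2 most abundant, and the 3 closest profiles of each of the 10 among genes that average at least 1 CPM (log2 CPM with a prior count of 2). No 2 libraries of the same group agreed within sampling noise, and pairs from different groups were not compared. The smallest sums of the marker lists not given with the results were those of natural killer cells, at 60 CPM in 24 h replicate 2, 23.8 CPM in 72 h replicate 1 and 0.991 to 3.08 CPM in the others. In the same order, T cell markers summed to 846, 84.4 and 2.88 to 14.8 CPM, neutrophil markers to 195, 168 and 62.3 to 86.3 CPM, and erythroid markers to 2910, 2510 and 12.2 to 855 CPM. Upstream windows come from RefSeq. That of Plac8 is not printed, since its start differs by 40 bases between RefSeq and GENCODE, and that of Cd14 was not used here. The labels do not say that the 3 mice of a group came from separate litters. The p-values set each group difference against the spread between these mice. Of the genes and motifs read, 1 of each is not reported here.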

Additional observations from a re-analysis of the deposited data

Results flagged for a closer look

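Ace was higher at 72 h than at 24 h after ozone. The difference was tested directly and came to 0.36 ± 0.09 on the log2 scale (adjusted p = 0.0255, edgeR), with 3 of 3 libraries of 72 h above 3 of 3 libraries of 24 h. It passed the threshold in 5 of 9 fits that left out single libraries and missed it with the replicate block (adjusted p = 0.0583). The air mice form 1 group with no time given. An effect of ozone that differs by time thus cannot be told apart from other differences between the times. Against air, Ace was higher by 0.58 ± 0.09 at 72 h and by 0.23 ± 0.09 at 24 h (adjusted p = 0.0226 and 0.301), comparisons that share the air libraries.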

How the results depend on the processing

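Over the alternatives tried, Ace kept its direction, and its adjusted p at 72 h against air ran from 5.55e-07 to 0.122. The number of genes called depended on the setting, with the cause not tested. At 24 h against air it was 1, and 7 without the 2 libraries that stood apart, 562 with DESeq2, 0 without a filter on low counts, with only the 6 libraries compared or with the replicate block, and 0 to 2 when single libraries were left out. For 72 h against air it was 860, and 506 with DESeq2 size factors, 299 with upper quartile scaling, 270 without a filter, 459 with at least 1 CPM in 3 libraries, 35 with the replicate block, 382 without the 2 libraries and air replicate 2, 1898 with DESeq2, and 7 to 1625 when single libraries were left out. For 72 h against 24 h it was 2855, and 1696 without a filter, 1474 with the replicate block, 1618 without the 3 libraries, and 340 to 2499 when single libraries were left out. Of the 10 genes, those called were 0 in every setting at 24 h against air. At 72 h against air the count of 1 was 2 without the 3 libraries (Ace and Cd14), 0 with the replicate block and 0 to 1 when single libraries were left out. At 72 h against 24 h the count of 1 was 3 without the 3 libraries (Ace, Itgam and Cd14), 2 with upper quartile scaling, with at least 1 CPM in 3 libraries and with DESeq2 (Ace and Ms4a7), and 0 to 1 when single libraries were left out.

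Signs turned mostly for genes that the 2 libraries set. Leaving out the 2 libraries, the log2 fold change was -1.98 for Ly6c2, -0.42 for Plac8, -0.06 for Itgam and 0.05 for Cd14 at 24 h against air, -0.46 for Plac8 and -0.66 for Klf2 at 72 h against air, and 2.10 for Ly6c2 and 0.00 for Treml4 at 72 h against 24 h. Without the 3 libraries it was -2.52 for Ly6c2, -0.94 for Plac8 and -0.20 for Itgam at 24 h, -0.43 for Ly6c2, -0.99 for Plac8 and -0.68 for Klf2 at 72 h, and 2.09 for Ly6c2 at 72 h against 24 h. Treml4 at 72 h against 24 h was 0.03 with upper quartile scaling and 0.01 with at least 1 CPM in 3 libraries. When single libraries were left out, the ranges that crossed 0 at 24 h against air were -1.98 to 5.49 for Ly6c2, -0.42 to 7.67 for Plac8, -0.06 to 3.56 for Itgam, -0.25 to 0.03 for Vcan, -0.19 to 0.05 for Cd14 and -0.10 to 0.25 for Fcgr1. For 72 h against air they were -0.48 to 6.53 for Plac8, -0.69 to 1.49 for Klf2 and -0.01 to 0.16 for Ms4a6d. Ly6c2 then ran from 0.10 to 4.70, and Ms4a6d was 0.19 without the 3 libraries. For 72 h against 24 h they were -2.61 to 3.89 for Ly6c2, -6.05 to 4.84 for Plac8, -4.24 to 3.66 for F13a1, -2.58 to 3.51 for Itgam, -0.10 to 0.11 for Treml4 and -0.33 to 0.02 for Fcgr1.

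Between libraries with the same replicate number, deviations from the group means had correlations of -0.61 to 0.48. Only 72 h replicate 3 and 24 h replicate 3 correlated best with their own number. The 2 libraries that stood apart entered these correlations and weigh on them, so the check cannot tell whether the numbers pair the mice. With the replicate block, Ace was 0.59 (adjusted p = 0.0764) at 72 h against air and 0.36 (adjusted p = 0.0583) at 72 h against 24 h, Cd14 at 72 h against 24 h was -0.37 (adjusted p = 0.0291), and Ly6c2 at 72 h against 24 h turned to 0.15. No scaling moved the median of all genes by more than 0.059 on the log2 scale. Depth limits Ly6c2, Plac8 and Ly6c1 most, as each had 3 counts or fewer in at least 1 library. DESeq2 gave no adjusted p to 4 of the 10 genes, so its counts of them cover 6.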
